A study of Mus musculus with 6 samples.

Results

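The genes described here were 10 components of bone morphogenetic protein (BMP) signalling and its Id effectors, namely Id1, Id2, Id3, Id4, Smad6, Smad7, Bmp4, Bmp7, Bmpr1a and Bmpr1b. They were taken by gene symbol from a table of 53110 genes, where each symbol had a row. RNA-seq was done on primary cortical neural stem cells (NSCs) of the mouse, which were kept at 21% O2 in a medium with bFGF and EGF and grown attached to Matrigel. WT cells (3 samples) were compared with Setd5+/- cells (3 samples), which carry a mutation of 1 copy of Setd5 made with Crispr-Cas9, a gene for a SET-domain protein linked to chromatin. The comparison asks which genes differ when 1 copy of Setd5 is lost in this oxygen condition. No agent separates the genotypes, and no age or strain is given in the labels.

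BMP ligands are secreted proteins of the TGF-beta superfamily that bind pairs of type I and type II receptor kinases, and the type I receptor then phosphorylates Smad1, Smad5 or Smad9 (also called Smad8). The phosphorylated Smads enter the nucleus with Smad4 and switch on target genes, among which the Id genes and the inhibitory Smads, Smad6 and Smad7, are the best known. Id proteins have a helix-loop-helix but no DNA-binding region, so they bind E proteins and keep these from pairing with bHLH factors such as the proneural proteins. In the embryonic cortex BMP signalling is known for dorsal patterning and for promoting astrocyte fate, and Id proteins for holding progenitors undifferentiated.

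The 3 samples of a genotype differed by no more than the counting of paired reads gives. Counting both ends of a read pair makes the variance of reads 2 times their mean. Within a genotype the variance over the mean was 1.81 to 2 at every level from 5 reads to over 10000 reads per gene, so no further variation appeared in the deeply read genes. The chi-square per degree of freedom, not rescaled, was 1.92 to 1.98 in the 6 pairs of samples of the same genotype and 72.2 to 72.4 in the 9 pairs across genotypes. The column headings give the samples of a genotype the same index and lane, and name a single clone for the mutant. They were therefore counted as parts of 1 library, so n = 1 for each genotype. Genotype, clone, library and sequencing lane cannot be told apart, and no test between genotypes was possible. The WT parts held 9995980 to 10004948 reads on genes and the Setd5+/- parts 7143309 to 7146147. Setd5 itself measured 2498, 2749 and 2780 normalized counts in WT and 2151, 1990 and 2055 in Setd5+/-, a log2 difference of -0.37 with a 95% counting interval from -0.44 to -0.31.

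Values are normalized counts, that is reads on a gene divided by the size factor of the sample. Differences are Setd5+/- minus WT on the scale log2(normalized count + 1), which understates the change of low genes, and fold values are on that scale too. A gene whose mean reached 10 normalized counts was called when it differed by at least 2-fold and its 95% counting interval left out 0. The interval covers counting error only and says nothing of how cultures or clones vary. By this rule 2666 of 16266 genes (16.4%) were called, 1668 of them higher in Setd5+/- (10.3%) and 998 lower (6.14%), and the median difference of all genes tested was -0.02. In bulk RNA, fewer cells of a type and less RNA per cell cannot be told apart.

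In the Setd5+/- library, Id4 and Bmp7 fell by more than 2-fold and Smad6 rose from a very low level. Id2 and Id3 stood lower by less than 2-fold, Id1 could not be told from no difference, and both BMP type I receptors stood higher by less than 2-fold. Bmp4 was listed at 0 in all 6 samples. Of the 10 genes, 9 passed the filter and 3 were called, against the 16.4% of all genes, with 1 higher and 2 lower. The 1 higher was Smad6, which passed the filter only through its level in Setd5+/-, so its call is a description. With a limit of 1.5-fold the number called was 7 (3 higher and 4 lower), against 33.6% of all genes (18.8% higher and 14.8% lower). In 7 of the 9 the samples of the genotypes did not overlap, which was true of 65.3% of all genes tested, so this separation is common in the table. The median of the 9 differences was -0.23.

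**Figure D1:**
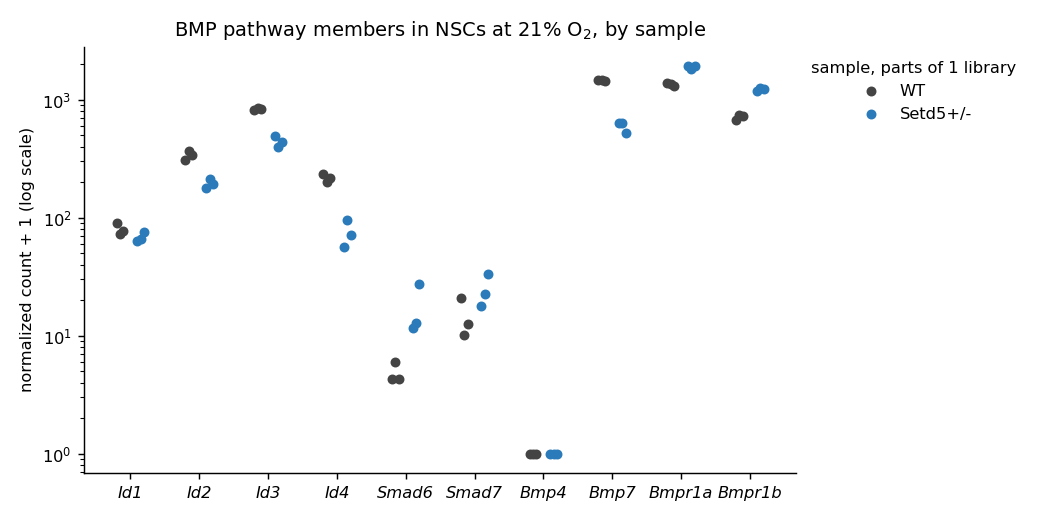
Normalized count + 1 (log axis) of the 10 genes in each sample, with 3 WT points (dark) and 3 Setd5+/- points (blue) that are parts of 1 library per genotype. Id2, Id3, Id4 and Bmp7 lie lower in every Setd5+/- sample, Smad6, Bmpr1a and Bmpr1b lie higher, the samples of Id1 and Smad7 overlap, and Bmp4 is at 0 throughout.

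Id4 showed the largest fall of the 4 Id genes. Its gene lies on chromosome 13 (chr13:48261228-48266026, + strand; this and the gene positions that follow are in mm10). The 250 bases before its RefSeq start (GRCm38.p6, chr13:48260866-48261115, + strand) are shown because Id genes are classic direct targets of BMP Smads, whose GC-rich binding elements GGCGCC and GGAGCC were searched for on both strands and are printed in capitals. The Id2 and Id3 stretches of 30 bases around each match follow, for comparison.
Id4: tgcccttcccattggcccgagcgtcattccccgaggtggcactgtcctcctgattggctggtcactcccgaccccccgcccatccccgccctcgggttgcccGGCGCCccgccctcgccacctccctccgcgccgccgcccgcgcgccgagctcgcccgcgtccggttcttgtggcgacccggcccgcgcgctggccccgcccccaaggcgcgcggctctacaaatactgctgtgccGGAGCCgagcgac
Id2 (chr12:25096306-25096335, - strand): tcaggccccctgGGCGCCcagcgcacactg
Id2 (chr12:25096163-25096192, - strand): gtatgatggacgGGAGCCcttccaccaatg
Id3 (chr4:136143623-136143652, + strand): cctcgcatccgaGGCTCCgctgtcctcggc
The RefSeq starts used here differ from the GENCODE gene starts: the GENCODE span of Id2 begins 1048 bases and that of Id3 325 bases before the RefSeq start, so the stretches of Id2 and Id3 lie inside the gene spans, while that of Id4 begins 112 bases after it. In Id4 the matches began 148 bases (GGCGCC) and 13 bases (GGAGCC) before the start. In Id2 they began 231 and 88 bases before its RefSeq start, and in Id3 GGAGCC stood on the reverse strand, read here as GGCTCC, 187 bases before it. The matches were not particular to genes of 1 direction. Smad6 had GGAGCC 102 and 18 bases before its start, Bmp4, which was at 0, had it 32 bases before, Bmpr1a had GGCGCC 198 bases before, and 2 of the 3 windows of Bmpr1b had GGAGCC, 141 and 43 bases before. In all, 7 of 7 genes with a window, and 8 of their 9 windows, held GGCGCC or GGAGCC. The short Smad element CAGAC began 167 bases (forward strand) and 68 bases (reverse strand) before the start of Id3. In 2 of the 3 windows of Bmpr1b it began 128 bases (forward strand) and 245 bases (reverse strand) before the start. CAGAC was not found in the Id2 and Id4 windows. Of all 32851 RefSeq windows of this length, GGCGCC was present in 9.59%, GGAGCC in 26%, either in 31.7%, and CAGAC in 42.2%. These windows were not matched for base composition to those of the 7 genes, so the shares do not show enrichment. A window can hold both GGCGCC and GGAGCC, as those of Id2 and Id4 do. Within the windows of the 7 genes no matches shared bases. A window was at hand for 7 of the 10 genes, with none for Id1, Smad7 and Bmp7, and a match describes letters and not binding.

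Id4 measured 232.2, 201.0 and 216.1 normalized counts in WT and 54.8, 95.3 and 70.3 in Setd5+/-. The highest Setd5+/- sample lay below the lowest WT sample. The log2 difference was -1.55 (95% counting interval -1.86 to -1.23), 2.92-fold lower, at percentile 2.83 of all genes tested. Within the Setd5+/- parts the values spread widely, and leaving out replicate 1 or 2 of Setd5+/- moved the difference to -1.38 or -1.77, both past 2-fold. Exons of an antisense gene (A330033J07Rik) and of Gm49291 on the opposite strand cover 2.13% and 4.44% of the Id4 exons, and the strand setting of the counting is not given. On the strand opposite Bmpr1a, exons of Gm17110 cover 4.57% of its exons.

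Id3 (chr4:136143497-136145755, + strand), the Id gene with the highest level per length, measured 811.0, 843.0 and 833.9 normalized counts in WT and 489.8, 398.9 and 438.4 in Setd5+/-. All 3 Setd5+/- samples lay below all WT samples. The log2 difference was -0.91 (-1.04 to -0.77), under the 2-fold limit but past 1.5-fold. Id2 (chr12:25093799-25097140, - strand), which binds E proteins and also pocket proteins of the retinoblastoma family, measured 304.3, 363.2 and 340.4 in WT and 177.6, 210.8 and 190.6 in Setd5+/-. Here too the genotypes did not overlap, and the log2 difference was -0.80 (-1.01 to -0.59).

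Id1 (chr2:152736251-152737410, + strand), a sensitive BMP target in many cell types, measured 88.7, 72.0 and 76.2 normalized counts in WT and 62.0, 64.3 and 75 in Setd5+/-. The highest Setd5+/- sample lay above the lowest WT sample. The log2 difference of -0.23 had an interval from -0.61 to 0.14, so a fall of up to 0.61 or a gain of up to 0.14 on the log2 scale is within the counting error.

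The unequal differences in the family can be read as ratios within a library, which do not depend on the scaling. The log2 difference of Id4 was lower than that of Id1 by 1.31 (interval of Id4 minus Id1, -1.81 to -0.82), than that of Id2 by 0.75 (-1.13 to -0.37) and than that of Id3 by 0.64 (-0.99 to -0.30). Id2 and Id3 did not differ from each other beyond counting error, with Id3 minus Id2 at -0.11 (-0.36 to 0.14). Id1 stood apart from Id2 (Id2 minus Id1, -0.57, -1.0 to -0.14) and from Id3 (Id3 minus Id1, -0.67, -1.07 to -0.27).

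Per kilobase of exon the WT levels ran in the order Id3 (463 normalized counts per kilobase), Id2 (138), Id1 (68.1) and Id4 (56.2). In Setd5+/- the order was Id3 (247), Id2 (79.2), Id1 (57.9) and Id4 (19.1). Id3 thus held 63.9% of the summed level per length in WT and 61.3% in Setd5+/-, while the Id4 share was 7.76% and 4.73% and the Id1 share 9.39% and 14.4%. The normalized counts of the 4 Id genes summed to 1461 in WT and 775.9 in Setd5+/-, a log2 difference of -0.91 (-1.02 to -0.81).

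**Figure D2:**
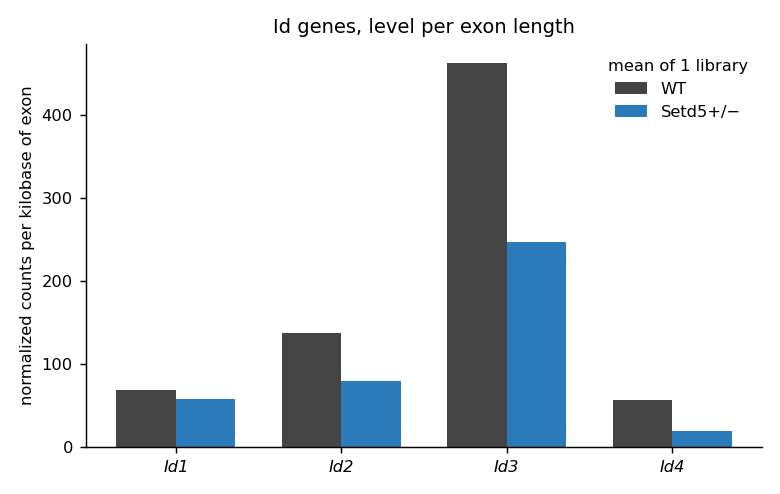
Level of the 4 Id genes per exon length (bars from 0, normalized counts per kilobase of exon, mean of the 3 parts of 1 library, no error bar) in WT (dark) and Setd5+/- (blue). Id3 is the highest in both, at 463 and 247, and Id4 the lowest, at 56.2 and 19.1.

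Of the ligands, Bmp7 was expressed and Bmp4 was not detected. Bmp7 (chr2:172868012-172940321, - strand), which signals through several type I receptors and is made in the dorsal midline and meninges of the embryonic brain, measured 1474, 1464 and 1426 normalized counts in WT and 628.1, 633.5 and 519.4 in Setd5+/-. Every Setd5+/- sample was below every WT sample. The log2 difference was -1.29 (-1.41 to -1.18), 2.45-fold lower, at percentile 3.76 of all genes tested, and without replicate 3 of Setd5+/- it was -1.20. Bmp4 (chr14:46383520-46390669, - strand), a closely studied dorsal ligand, had 0 reads, which allows a mean level of up to 1.6 normalized counts for WT and 2.3 for Setd5+/-, the value of 3 read pairs over each library.

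The 2 type I receptors stood higher in Setd5+/-, neither by 2-fold. Bmpr1a (chr14:34410734-34503341, - strand), the broadly expressed receptor also called ALK3, measured 1380, 1345 and 1303 normalized counts in WT and 1922, 1821 and 1927 in Setd5+/-, a log2 difference of 0.49 (0.41 to 0.57). Bmpr1b (chr3:141837136-142169425, - strand), also called ALK6, measured 667.5, 744.6 and 721.3 in WT and 1187, 1248 and 1221 in Setd5+/-, a difference of 0.78 (0.67 to 0.88). For both receptors the genotypes did not overlap. The difference of Bmpr1b exceeded that of Bmpr1a by 0.28 (0.15 to 0.41), and Bmpr1b made up 36.1% of the summed level per length of the 2 receptors in WT and 40.7% in Setd5+/-.

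The inhibitory Smads were the lowest of the detected genes. Smad6 (chr9:63953076-64022059, - strand), which preferentially blocks the BMP branch, measured 3.32, 4.96 and 3.31 normalized counts in WT and 10.7, 11.9 and 26.2 in Setd5+/-, from 14 and 41 reads. The genotypes did not overlap, with 1 Setd5+/- sample far above the others. The log2 difference was 1.83 (0.81 to 2.84), 3.55-fold. Smad6 passed the filter only through its level in Setd5+/-, with a mean of 10.1 against the limit of 10. It drops below that limit, and with it the call, without replicate 2 of WT, without replicate 3 of Setd5+/- or with upper quartile scaling. Smad7 (chr18:75367529-75395935, + strand), which blocks both the BMP and the TGF-beta branch, measured 19.9, 9.1 and 11.6 in WT and 16.7, 21.4 and 32.2 in Setd5+/-, from 49 and 59 reads. The samples overlapped, and the log2 difference of 0.75 (0.03 to 1.47) had an exact interval from -0.01 to 1.61 for the plain ratio of reads. Without replicate 1 of WT it was 1.11 and Smad7 was called, so 1 sample decides this call. The differences of Smad7 and Smad6 were not told apart (Smad7 minus Smad6, -1.08, -2.32 to 0.16).

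**Figure D3:**
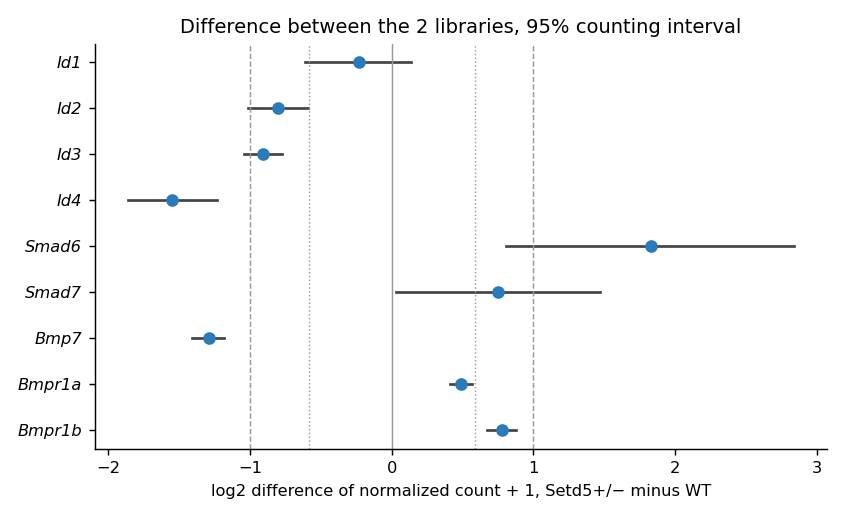
Log2 difference of normalized count + 1, Setd5+/- minus WT, for the 9 genes above 0 (points) with 95% counting intervals (bars). Dashed lines mark 2-fold and dotted lines 1.5-fold. Id4 and Bmp7 lie below the lower 2-fold line, Smad6 lies above the upper one with the widest interval, and the interval of Id1 spans 0.

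Of the 93 other listed genes of the pathway and of Id partners found in the table, 53 passed the filter, and 14 were called (26.4%, against 16.4% of all genes). Of these, 11 were higher (20.8%, against 10.3% of all genes) and 3 lower, and the median difference of the 53 was 0.28. Called genes of the whole table lean the same way. Bmp3, Tgfbr3, Sostdc1 and Neurog2 passed the filter only through the library where they are high, as did 667 of the 2666 genes called in the table, so such genes had to differ and the shares are a description. The called genes came from every list except that of the other Smads, and with 2 to 14 genes a list no share of 1 list stands for more than a few genes.

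Among 8 other receptors and co-receptors that passed, 3 were called higher (37.5%, against 10.3% of all genes) and none was called lower. With or without a call, 7 were higher and 1 lower, with a median of 0.92. Bmpr2, the main type II receptor of BMPs and the gene with the highest mean count of this list, measured 1380, 1492 and 1332 normalized counts in WT and 3329, 3375 and 3441 in Setd5+/- (log2 difference 1.27). It lies on chromosome 1, where the median of all genes was 0.53 against -0.04 elsewhere. None of the 10 genes lies on that chromosome. Rgmb, a GPI-linked BMP co-receptor, measured 201.5, 187.0 and 202.1 in WT and 460.0, 512.1 and 402.6 in Setd5+/- (1.21). Tgfbr3, or betaglycan, rose from 18 to 61 reads, a log2 difference of 2.08 (1.17 to 2.99).

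Of 11 extracellular antagonists and modulators that passed, 3 were called higher and 1 lower (36.4% called, against 16.4% of all genes), with a median of 0.82. Fstl1, a secreted glycoprotein that binds BMPs and can restrain them, measured 213.1, 207.7 and 197.1 normalized counts in WT and 1498, 1530 and 1414 in Setd5+/-, a 7.16-fold difference (log2 2.84, 2.68 to 3.00). Twsg1, which binds BMPs together with chordin and can act for or against signalling, measured 689.9, 639.5 and 582.2 in WT and 1551, 1456 and 1543 in Setd5+/- (1.25). Fst, or follistatin, which traps activins and some BMPs, rose from a mean of 12.7 to 37.7 (1.5, 0.83 to 2.16). Sostdc1, an antagonist of BMP and Wnt signalling, fell from 16.6 to 4.76 (-1.61, -2.66 to -0.56). Bmp1, a protease that cleaves chordin and is not a BMP ligand, had the highest level of the list, at means of 1630 and 1985, and was not called.

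Only 2 other ligands passed the filter. Bmp3, which lacks the usual BMP activity and can oppose other ligands, measured 11.6, 9.93 and 8.28 normalized counts in WT and 50.1, 78.6 and 61.9 in Setd5+/-, a log2 difference of 2.56 (1.89 to 3.23). Bmp8b, the other of the pair, gave -0.38 (-0.97 to 0.21). The other 6 Smads all passed and none was called, with a median of -0.17. Smad5, a BMP-responsive Smad with the highest level of these, measured 2709, 2620 and 2601 in WT and 1941, 1947 and 1920 in Setd5+/- (-0.45, -0.52 to -0.38).

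Among 14 intracellular regulators that passed, 2 were called higher (14.3%, near the 10.3% of all genes) and none was called lower. With or without a call, 10 were higher and 4 lower, with a median of 0.19. The 2 called were the Smad-interacting transcription factors Runx1, at means of 72.3 and 192.6 normalized counts (log2 difference 1.40), and Runx2, at 16.0 and 64.7 (1.95). Ctdsp2, a phosphatase with the highest level of the list, gave 0.16. Of the other direct targets, 3 passed and 1 was called higher, too few for a share. That was Tbx2, a T-box repressor, with 33.2, 18.2 and 29.8 in WT and 139.4, 164.3 and 147.7 in Setd5+/- (2.43, 2.00 to 2.86). The highest of them, Hey1, a bHLH repressor shared with Notch signalling, gave 0.24 (0.11 to 0.38) and was not called.

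Of 9 bHLH factors and Id partners that passed, 3 were called (33.3%, against 16.4% of all genes), and the median of the 9 was -0.19. Of the 3, 1 was called higher (11.1%, near the 10.3% of all genes) and 2 lower, where 6.14% of all genes were called lower. Tcf12, an E protein that Id proteins bind, measured 2780, 2759 and 2753 normalized counts in WT and 6165, 5988 and 5878 in Setd5+/- (log2 difference 1.12). The other E proteins of the list, Tcf4 (0.21) and Tcf3 (-0.19), were not called. Neurog2, the proneural factor of dorsal cortex and a partner of E proteins, fell from 262 reads to 2. Its plain log2 ratio was -6.51 with an exact counting interval from -11.66 to -4.04. Hes1, a repressor that keeps progenitors cycling, measured 457.7, 508.8 and 460.4 in WT and 196.7, 228.6 and 245.4 in Setd5+/- (-1.09, -1.28 to -0.90). The highest of the list was Olig1, a glial bHLH factor, at means of 28867 and 15491 (-0.90), which is under the 2-fold limit.

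**Figure D4:**
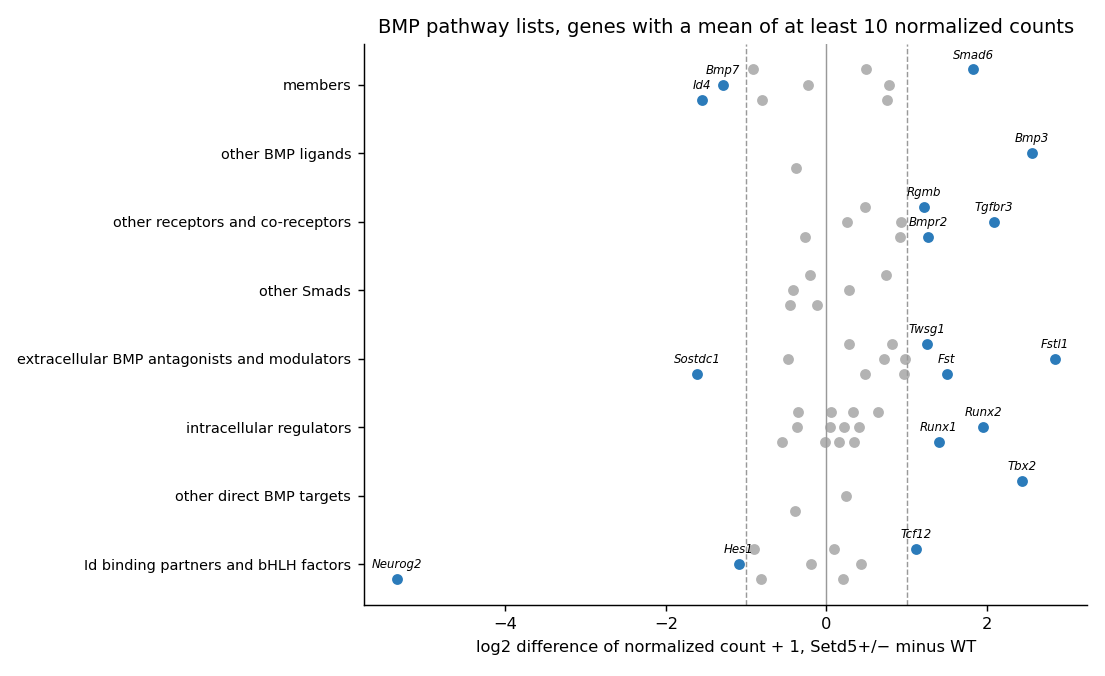
Log2 difference of normalized count + 1, Setd5+/- minus WT, for each gene that passed the filter, by role in the BMP pathway. Blue points were called and carry their symbol, grey points were not, and dashed lines mark 2-fold. Called genes lie to the right in the receptor, modulator and intracellular lists except for Sostdc1, and Neurog2 lies farthest to the left.

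Markers of the labelled cell type were present. All 9 NSC markers were detected in both libraries, with a summed level of 74053 to 74343 normalized counts in WT and 53117 to 53920 in Setd5+/-. All 9 passed the filter and 2 were called, Fabp7 and Prom1, both lower (22.2%, against 16.4% of all genes). With or without a call, 3 were higher and 6 lower. The lower sum came from Fabp7, with means of 36015 and 11490, and the other 8 markers summed to 38195 in WT and 42108 in Setd5+/-. Among these 8, Vim stood at means of 9095 and 13822. The cortical marker Emx1 was nearly absent, at a mean of 0.552 in WT and 0 in Setd5+/-, and the 5 forebrain markers summed to 1649 to 1770 in WT and 991.1 to 1094 in Setd5+/-. The 6 astrocyte markers summed to 7091 to 7212 and to 3905 to 4190. All 6 passed the filter and 5 were called (83.3%, against 16.4% of all genes). Of these, 3 rose, with Gfap from a mean of 17.1 to 263.3, and 2 fell, with Slc1a2 from 4678 to 1225. Mesenchymal markers summed to at most 19.1, choroid plexus and cortical hem markers to at most 21.5 with Ttr, Folr1 and Kl at 0, and endothelial markers to at most 26.2. The 6 neuron markers summed to 10177 to 10549 in WT and 12469 to 12591 in Setd5+/-, mostly from Map2, which was not called. None of them was called higher and 2 were called lower, Dcx from a mean of 248.5 to 26.2 and Snap25 from 19.1 to 5.56. The 6 markers of the oligodendrocyte lineage summed to 1854 to 1859 and to 2299 to 2497. Of these, 5 passed the filter and 2 fell (40.0% called, against 16.4% of all genes). They were Sox10, from a mean of 298.2 to 1.59, and Mbp, from 32.3 to 6.35. The 5 microglia markers summed to 78.6 to 118.6 and to 48.9 to 70.3, mostly from Csf1r, with Cx3cr1 and Ptprc at 0 in both. Prom1, Snap25, Sox10 and Mbp passed the filter only through their level in WT, so these calls are a description. The part of these marker differences in the values of the BMP genes was not tested.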

How the data were processed

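RNA-seq libraries of NSCs at 21% O2 were analysed, 3 samples labelled WT and 3 labelled Setd5+/-. Per the submitters' processing notes, reads were trimmed with Trimmomatic, aligned to mm10 with Bowtie2 and analysed with DESeq2. The counter, strand setting and annotation release are not given in the sources used here. The values the authors deposited are normalized counts, that is counts divided by DESeq2's size factor. Their own comparison columns (log2 fold change, its standard error, test statistic, p-value and adjusted p-value) were not used.

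The decimal points of the deposited values had been lost. The value of 1 read (0.827 to 0.829 normalized counts in WT, 1.19 in Setd5+/-) and the deposited mean of each gene were used to restore them. All 26797 genes with a value above 0 could be placed, 3153 of them only by the mean, 25641 were at 0 and 672 held no values. On simulated data 99.995% of 121779 values were recovered.

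Reads varied within a genotype with a variance of 1.93 times the mean, as when both ends of a pair are counted, and counting intervals use this factor. Genes whose mean reached 10 normalized counts were called at 2-fold on log2(normalized count + 1) when the 95% interval left out 0. In simulated data for this comparison, with 200 of 16266 genes changed by 1.5 on the log2 scale, the rule recovered 186 and called 21 unchanged genes. limma 3.58.1 in R 4.3.3 (Benjamini-Hochberg, threshold 0.05) served as an alternative and compares the reads of 2 libraries. Exon lengths and positions come from GENCODE M21 (GRCm38) and upstream windows from RefSeq (GRCm38.p6). Proteins were not used here. Of the distinct stretches of 50 bases in the transcripts of each of the 10 genes, at most 3.77% (Bmpr1a) also occurred in transcripts of other genes.

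The genes and lists were chosen with earlier results of these data known. Named genes were the 10, Setd5, the listed genes that were called, and the gene of highest mean normalized count in each list. Bmp8b, Tcf3, Tcf4, Emx1 and the other cell type markers named were added after their values were seen.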

Additional observations from a re-analysis of the deposited data

How the results depend on the processing

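Over 16 alternative settings the 9 genes above 0 gave 139 values, since Smad6 or Smad7 fell below the filter in the others, of which 0 reversed and 5 moved by more than 1 counting standard error. Beyond the values already given, these were Smad6 with a pseudocount of 5 (1.26) and Bmpr1a with the median outside chromosome 1 set to 0 (0.54). The number of the 10 genes called was 3 and became 7 at 1.5-fold, 7 by limma and 7 by limma with the replicate block, with a range of 2 to 4 when 1 sample was left out. Without replicate 1 of WT, 4 were called. Over the 16266 genes tested the number was 2666 (16.4%), with 5462 at 1.5-fold (33.6%), 9963 by limma (61.3%) and 9946 with the replicate block. It was 1620 at a mean of at least 50 and 3728 with no filter, where the number of genes tested differs. Over the 53 genes tested of the other pathway lists the number was 14 (26.4%), with 24 at 1.5-fold (45.3%), 44 by limma and 44 with the replicate block. It was 22 with no filter and 8 at a mean of at least 50. The limma counts have no fold limit and compare reads of 2 libraries. The deviations of same-numbered samples correlated at 0.00, -0.03 and -0.02 over 12570 genes, so the replicate numbers share only a number. Depth limits Smad6, Smad7, Bmp4 and most other ligands, and nothing here measures variation between cultures or clones.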

Other observations

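Below the limit of 10 normalized counts, 8 listed genes of the pathway differed by at least 2-fold with a counting interval that left out 0, of 26 listed genes above 0 there. Over all genes above 0 and below that limit the share was 10.1% (1062 of 10531). Msx1, a homeobox target of BMP signalling, had 6 reads in WT and 40 in Setd5+/-, with 3.32, 0 and 1.66 normalized counts in WT and 19.1, 19.1 and 9.53 in Setd5+/-. The ligand Bmp5 had 4 and 22 reads and the antagonist Cer1 had 8 and 29. In the other direction, the antagonist Nog had 16 reads in WT and 2 in Setd5+/-, and Fstl5 had 32 and 0. For Nog the exact interval of the plain log2 ratio (-7.78 to 0.37) included 0. The remaining 3 were Bmp6 (3 and 11 reads, with an exact interval from -0.3 to 6.36 that included 0), Gdf6 (0 and 7) and Gata3 (0 and 8). These genes were named after their values were seen, and at these depths 1 sample can decide a difference.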
